A study of Mus musculus with 10 samples.

Results

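The genes described here are 32 genes of the endoplasmic reticulum (ER) that fold secreted and membrane proteins, sense unfolded protein, or remove protein that cannot be folded. They were taken by name from the deposited gene tables: 9 chaperones and their cofactors, 2 lectin chaperones, 6 genes of oxidative folding, 5 genes of stress sensing, 8 genes of ER-associated degradation and 2 genes of protein import. All 32 were found among the 30295 rows of the tables, Selenos under its older symbol Vimp, and all 32 were among the 15839 genes with enough reads to test. The rule uses gene names only.

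RNA came from stem cells of the mouse intestine, sorted by fluorescence from C57Bl/6 mice, with 1 library per animal and 10 animals handled in 5 isolations. Active stem cells were sorted by the EGFP of the Lgr5-EGFP-IRES-CreER allele, and reserve stem cells by the tdTomato of Hopx-CreER::LSL-tdTomato mice. Mice of each line had free access to food (AL, ad libitum) or were under calorie restriction (CR), which gave 3 animals in each of the groups Lgr5 AL and Lgr5 CR and 2 in each of the groups Hopx AL and Hopx CR. Each isolation held 1 AL and 1 CR animal of the same line, so differences between the diets are also given per isolation, while the printed fold changes and tests compare group means without regard to isolation. Line and isolation cannot be told apart between Lgr5 and Hopx cells. EGFP follows transcription from the Lgr5 locus, while tdTomato marks cells in which Cre has acted together with their descendants. The sources used here do not state how old the animals were.

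The ER is where proteins bound for secretion, the cell surface or the lysosome enter through the Sec61 channel, fold with the help of chaperones and disulfide isomerases, and are returned to the cytosol for degradation when folding fails. When unfolded protein builds up, 3 kinds of sensor in the ER membrane respond: IRE1, encoded by Ern1 and in epithelia also by Ern2, splices the Xbp1 mRNA, PERK (Eif2ak3) slows translation, and ATF6 is cut to release a transcription factor. In the intestine this unfolded protein response is best known from Paneth and goblet cells, which secrete large amounts of antimicrobial protein and mucin. The measurements below are mRNA levels per gene, so neither the splicing of Xbp1 nor the activity of a sensor can be read from them.

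Depth ran from 20.3 M estimated counts (M, 1e+06) in Lgr5 AL 3 to 87.2 M in Hopx CR 1, and libraries are named by group and replicate number throughout. Lgr5 mRNA was at 75 to 270 CPM (counts per 1e+06 counts, scaled for library composition) in Lgr5 libraries and 69.3 to 158 CPM in Hopx libraries, and Hopx mRNA at 116 to 154 and 81.9 to 116 CPM, so these ranges overlap or meet and the name reserve stem cell rests on the sort. The epithelial marker Epcam was at 1410 to 2200 CPM in every library. Transcripts of mature cells were present in all libraries: the summed level of 12 Paneth cell markers was 16600 to 67000 CPM in Lgr5 AL, 50500 to 68800 in Lgr5 CR, 85900 to 212000 in Hopx AL and 64900 to 102000 in Hopx CR, and none of the 12 was at 0 in any library. The defining plasma cell genes Mzb1 and Tnfrsf17 were at 0 to 2.05 CPM and 0 to 0.246 CPM, each at 0 in some libraries. Immunoglobulin transcripts were nevertheless present and uneven. Igha ran from 0.0838 CPM in Lgr5 AL 3 to 107 CPM in Lgr5 CR 3, and Igkc from 0.163 CPM in Lgr5 AL 3 to 84.1 CPM in Hopx AL 2. The part of plasma cell RNA in the levels below was not tested. The animals also differed in Y-linked transcripts: Eif2s3y was at 0.045 to 0.125 TPM in Lgr5 AL 3, Lgr5 CR 3 and Hopx CR 1 and at 8.91 to 30.5 TPM in the other 7, so the AL and CR animals of isolation 4 differed in it.

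Levels of different genes are compared here in TPM (transcripts per 1e+06 transcripts), which corrects for transcript length. The highest of the 32 was P4hb, the protein disulfide isomerase that also forms the beta subunit of prolyl 4-hydroxylase, at a mean of 1070 TPM over the 10 libraries (range 588 to 1480). Hspa5, the luminal chaperone BiP that holds the 3 sensors inactive, came next at 442 TPM (364 to 559). P4hb was above Hspa5 in all 10 libraries, by 1.40 to 4.07 times. Calr, the soluble lectin calreticulin, followed at 390 TPM and Pdia3, the isomerase that works with it, at 387 TPM. Calr was the higher of the pair in 6 of 10 libraries and they were not separated beyond their spread. Xbp1, which encodes the transcription factor made after IRE1 splicing, was at 229 TPM (164 to 301) and below Pdia3 in all 10 libraries.

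At the low end stood the sensors Ern1, Ern2, Atf6 and Eif2ak3, some tissue-restricted relatives and the chaperone Hyou1 (9.58 TPM). Ern2, the IRE1 of mucosal epithelia, was at 12.8 TPM (8.15 to 17.9) and Ern1, the IRE1 of most tissues, at 5.5 TPM (3.48 to 8.63). Ern2 was the higher of the pair in all 10 libraries, by 1.17 to 4.24 times. Atf6 was at 9.46 TPM and Eif2ak3 at 9.40 TPM, and Atf6 was the higher in 4 of 10 libraries. Ero1l, the oxidase that recharges the isomerases, exceeded its relative Ero1lb in all 10 libraries (means of 19.4 and 8.5 TPM). Derl3, a channel component of degradation that is best known from secretory organs such as the pancreas, was the lowest of the 32 at 1.87 TPM (0.58 to 3.08, resting on 31 to 265 estimated counts), against 57.5 TPM for Derl1 and 45.4 TPM for Derl2. In the order of all 32 means, neighbours were separated in every library only for P4hb over Hspa5, Pdia3 over Xbp1, Derl2 over Edem1, Ero1lb over Ern1 and Ern1 over Derl3.

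**Figure D1:**
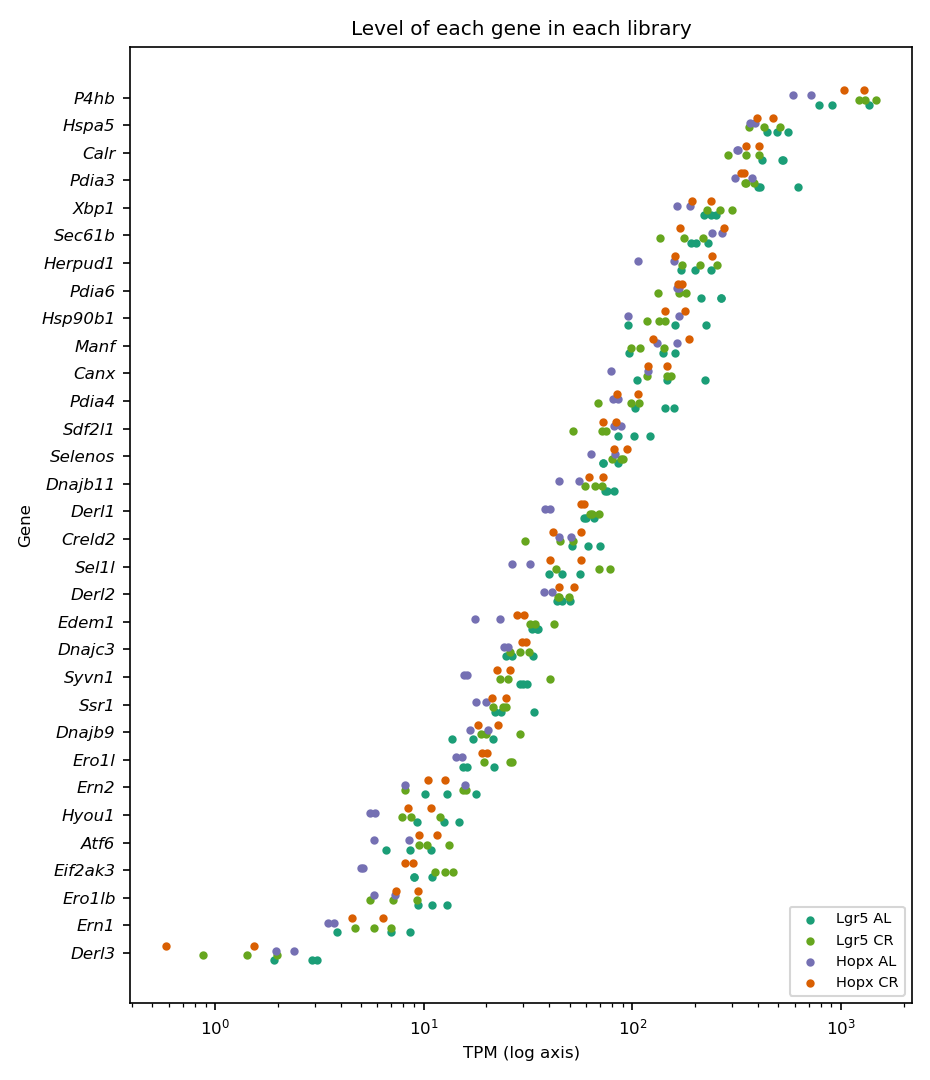
Level of each of the 32 genes in each library, in TPM on a log axis, 1 point per library, coloured by group and ordered by the mean. P4hb has the highest mean, with points from 588 to 1480 TPM, and Derl3 the lowest, with points from 0.58 to 3.08 TPM.

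Many of these genes are known as direct targets of the unfolded protein response, and the promoter sequences show where its motifs lie. RefSeq promoters of the build GRCm38.p6, running from 250 bases before to 50 bases after the start of the gene, were found for 27 of the 32 genes. No entry was found for Hyou1, Manf, Ern2, Atf6 and Derl1. Each was searched on both strands for the ER stress response element (ERSE: CCAAT, then any 9 bases, then CCACG), for ERSE-II (ATTGG, then any 1 base, then CCACG) and for the unfolded protein response element (UPRE, TGACGTGG). ERSE and ERSE-II share the letters CCACG, which are also read on the other strand of the UPRE. ERSE was present for 10 of 27 genes (37%), against 39 of 32851 promoters in the whole RefSeq table (0.119%). The members were counted per gene and all promoters per entry, and Derl2 has more than 1 entry. The 10 were those of Hspa5, Hsp90b1, Dnajc3, Creld2, Calr, Canx, Pdia6, Ero1lb, Syvn1 and Derl3. ERSE-II was present in the promoters of Dnajb11 and Herpud1 (7.41%, against 0.0365% of all promoters), and the UPRE in none of the 27 (0.676% of all promoters). A match describes the letters in this window and is not evidence of binding.

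Shown first are 3 promoters that hold ERSE, from genes whose levels are described below, with the fixed letters of the motif in capitals. Hsp90b1, which encodes GRP94, the ER member of the Hsp90 family, holds the element 2 times, once on each strand. Hspa5 holds it 65 bases before the start and Pdia6, an isomerase bound to BiP, 98 bases before it.

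Hspa5, chr2:34771840-34772139, plus strand: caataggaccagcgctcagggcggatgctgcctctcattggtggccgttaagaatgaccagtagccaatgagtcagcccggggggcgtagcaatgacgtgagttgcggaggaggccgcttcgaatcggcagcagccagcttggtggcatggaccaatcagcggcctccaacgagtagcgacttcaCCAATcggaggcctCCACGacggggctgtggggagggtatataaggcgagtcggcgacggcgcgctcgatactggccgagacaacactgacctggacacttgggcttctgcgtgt
Hsp90b1, chr10:86705395-86705694, minus strand: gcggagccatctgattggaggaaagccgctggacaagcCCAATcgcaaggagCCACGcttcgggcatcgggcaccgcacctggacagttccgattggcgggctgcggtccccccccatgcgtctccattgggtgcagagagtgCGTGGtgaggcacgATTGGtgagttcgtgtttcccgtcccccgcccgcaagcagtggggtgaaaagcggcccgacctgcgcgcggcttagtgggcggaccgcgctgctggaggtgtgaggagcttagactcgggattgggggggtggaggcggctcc
Pdia6, chr12:17266339-17266638, plus strand: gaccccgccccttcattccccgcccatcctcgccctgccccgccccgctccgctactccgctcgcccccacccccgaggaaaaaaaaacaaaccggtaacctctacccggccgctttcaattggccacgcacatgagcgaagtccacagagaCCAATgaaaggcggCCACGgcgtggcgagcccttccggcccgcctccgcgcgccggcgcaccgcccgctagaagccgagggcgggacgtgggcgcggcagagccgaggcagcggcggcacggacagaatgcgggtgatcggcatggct

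For comparison, the promoters of Eif2ak3 and Sel1l, which together with P4hb had the highest log2 fold changes under CR averaged over both populations, hold none of the 3 motifs and are therefore printed without capitals. They do not stand for all promoters without a motif. Sdf2l1 (-0.46), Pdia3 (-0.23) and Pdia4 (-0.23) also hold none and lay lower under CR, while Syvn1 (0.22) and Dnajc3 (0.12) hold ERSE and lay higher.

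Eif2ak3, chr6:70844265-70844564, plus strand: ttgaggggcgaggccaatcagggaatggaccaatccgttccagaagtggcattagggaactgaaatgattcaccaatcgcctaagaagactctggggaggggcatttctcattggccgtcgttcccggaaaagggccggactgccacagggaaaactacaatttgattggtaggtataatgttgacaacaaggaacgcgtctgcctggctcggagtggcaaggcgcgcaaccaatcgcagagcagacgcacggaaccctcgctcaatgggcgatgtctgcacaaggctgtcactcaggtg
Sel1l, chr12:91849108-91849407, minus strand: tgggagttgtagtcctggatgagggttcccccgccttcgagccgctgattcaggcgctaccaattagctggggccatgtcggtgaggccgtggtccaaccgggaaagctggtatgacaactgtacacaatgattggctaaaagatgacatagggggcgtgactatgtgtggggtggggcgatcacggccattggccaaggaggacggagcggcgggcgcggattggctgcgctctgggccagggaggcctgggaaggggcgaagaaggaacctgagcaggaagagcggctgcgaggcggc

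Under calorie restriction, averaged over both populations, the 10 genes with ERSE had a median log2 fold change of -0.12 (4 above and 6 below 0), and the 17 genes with a promoter entry and no ERSE a median of 0.15 (13 above and 4 below 0). The 17 include Dnajb11 and Herpud1, which hold ERSE-II. The diet medians were -0.16 and 0.24 in Lgr5 cells and -0.04 and -0.02 in Hopx cells, so the 2 lists differed in Lgr5 cells only. Between populations the medians were 0.30 and 0.26. These are descriptions of 2 short lists and were not tested.

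Before the comparisons, 2 libraries have to be set apart. Hopx AL 1 held the highest CPM of the 10 libraries for 20 of 32 members (62.5%, against 13.2% of all tested genes). Lgr5 AL 3, the least deeply sequenced, held the lowest for 14 of 32 (43.8%, against 16.9% of all genes). The median log2 CPM of the 32 genes was 7.22 in Hopx AL 1, 6.08 in Lgr5 AL 3 and 6.55 to 6.98 in the other 8 libraries. The same 2 libraries hold the ends of the Paneth cell markers, at 212000 CPM in Hopx AL 1 and 16600 CPM in Lgr5 AL 3, and Lyz1, the lysozyme of Paneth cells, took 9.39% and 0.677% of their counts. The part of Paneth cell RNA in these levels was not tested, and in bulk samples fewer cells of a type and less RNA per cell cannot be told apart. On the TPM scale Hopx AL 1 ranks differently: the summed TPM of the 32 genes was 3470 in Hopx AL 1, 3340 in Hopx AL 2 and 4240 to 4810 in the other 8 libraries.

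**Figure D2:**
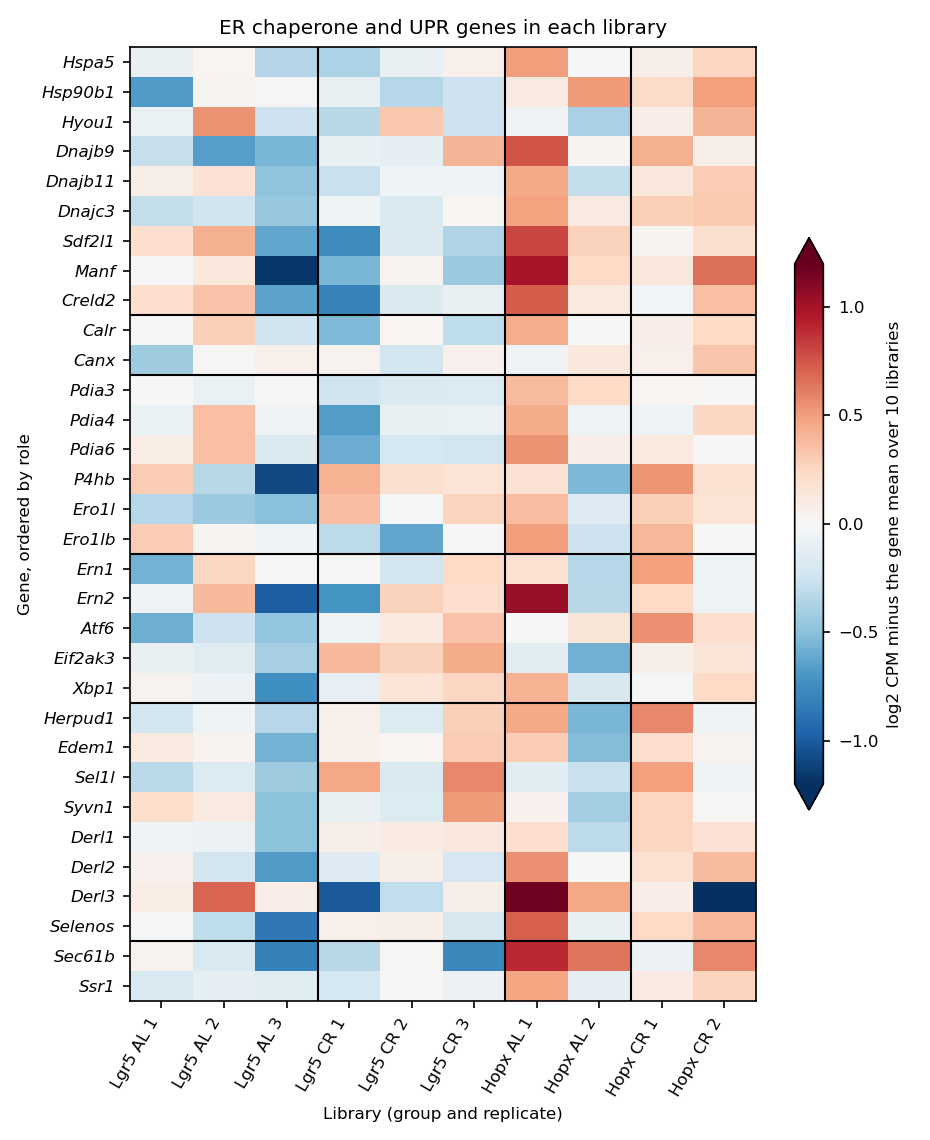
Log2 CPM of each gene in each library minus the gene's mean over the 10 libraries, with red above and blue below the mean, genes grouped by role and libraries by group. The column of Hopx AL 1 is red for most genes and the column of Lgr5 AL 3 blue for most.

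**Figure D3:**
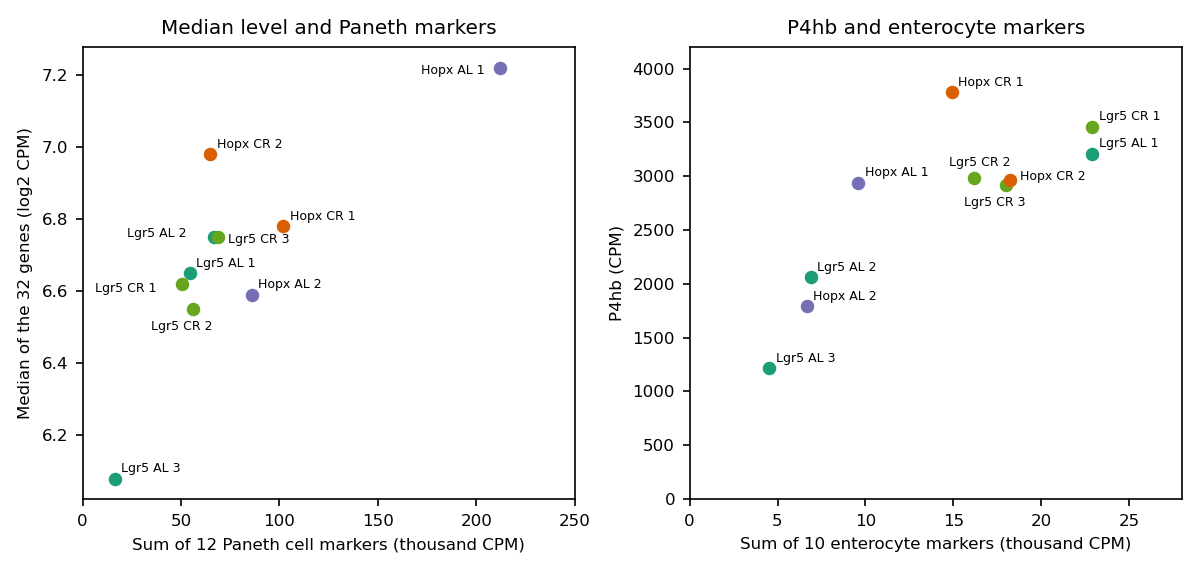
Left, median log2 CPM of the 32 genes against the summed CPM of 12 Paneth cell markers; right, CPM of P4hb against the summed CPM of 10 enterocyte markers, 1 point per library. Hopx AL 1 is at the upper right and Lgr5 AL 3 at the lower left of the left panel, and P4hb is lowest, at 1220 CPM, in the library with the lowest enterocyte sum.

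The first comparison was between calorie restriction and free feeding, within each population and averaged over both. No member passed the threshold of an adjusted p of 0.05 in any of the 3. Overlap of groups and directions within isolations are by CPM unless TPM is named. The members with the smallest p under CR were Eif2ak3 (PERK), Atf6, the degradation adaptor Sel1l and the oxidase Ero1l, each with higher levels, and Derl3 and Pdia6 with lower ones. Members of sensing and degradation mostly lay above AL and most isomerases below it, while BiP and the other chaperones lay on both sides. In counts this was 4 of 5 sensing genes above 0 (median log2 fold change 0.19), 7 of 8 degradation genes (0.22), 5 of 9 chaperones (0.00) and 2 of 6 genes of oxidative folding (-0.20), against 49.9% of all genes (median 0.00).

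The test was edgeR's quasi-likelihood test on estimated counts with Benjamini-Hochberg adjustment over the 15839 genes. It called 0 of 32 members in Lgr5 cells (0.0189% of all genes), 0 in Hopx cells (0.0126%) and 0 in the mean of both (0.00631%). The log2 fold change was above 0 for 19 of 32 members in Lgr5 cells (59.4%, against 51.8% of all genes), 15 of 32 in Hopx cells (46.9%, against 48.6%) and 20 of 32 in the mean (62.5%, against 49.9%). At an unadjusted p under 0.05, Lgr5 CR held 5 members above Lgr5 AL, which were Dnajb9, Ero1l, Atf6, Eif2ak3 and Sel1l (15.6%, against 5.57% of all genes), and 0 below (4.21%). Hopx CR held 0 above (5.41%) and 0 below (3.11%). The mean held 4 above (12.5%, against 8.35%) and 2 below (6.25%, against 6.17%), so by counts only the share in Lgr5 cells was more than 2 times the background. By log2(TPM + 1), where the median of all genes was -0.15, the same 5 members differed by 0.32 to 0.41 (SE 0.226 to 0.274) in Lgr5 cells. The members furthest from 0 on that scale were Pdia6 (-0.64, SE 0.185) and Sdf2l1 (-0.63, SE 0.205), both lower under CR. DESeq2 called 1 member in the mean, Eif2ak3 (3.12%, against 4.31% of all genes), 0 in Lgr5 cells (2.45%) and 0 in Hopx cells (0.922%). With isolation as a random block, limma-voom called 0 in the mean (1.33%), in Lgr5 cells (0.00631%) and in Hopx cells (0%).

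Leaving out Lgr5 AL 3 gave 4 of 5 sensing genes above 0 in the mean over populations (median 0.22) and 6 of 8 degradation genes (0.13), and leaving out Hopx AL 1 gave 5 of 5 (0.32) and 7 of 8 (0.37). For oxidative folding the counts were 2 of 6 (-0.22) and 3 of 6 (-0.05). On the log2(TPM + 1) scale they were 4 of 5, 7 of 8 and 2 of 6 in the mean over populations. Within a population the TPM scale moves the median of all genes, to -0.15 in Lgr5 and 0.26 in Hopx cells, so there the number of members above the median of all genes is given: 18 of 32 by counts and 18 by TPM in Lgr5 cells, and 16 and 20 in Hopx cells.

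Among the sensors, Eif2ak3 showed the most even difference. It was at 35.1, 34.0 and 28.4 CPM in the Lgr5 AL libraries, 49.0, 45.6 and 51.3 in Lgr5 CR, 34.5 and 25.2 in Hopx AL and 39.4 and 41.8 in Hopx CR, each in the order of the replicate numbers. Every CR library lay above every AL library of its population, and the CR animal was the higher in all 5 isolations, by 0.19 to 0.85 log2 units. Averaged over both populations the log2 fold change was 0.51 (SE 0.131, edgeR adjusted p = 0.152). DESeq2 gave 0.49 with an adjusted p of 0.0275, and over all alternatives the adjusted p ran from 0.0275 to 0.397 and the fold change from 0.41 to 0.62. A gene on the opposite strand, Gm43292, overlaps 8.05% of the exon bases of Eif2ak3, and the library kit does not mark strand.

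Atf6, the sensor that is itself the precursor of a transcription factor, was at 43.6, 55.3 and 47.6 CPM in Lgr5 AL and 62.7, 71.1 and 83.3 in Lgr5 CR. In Hopx cells it was at 65.8 and 72.5 CPM under AL and 95.6 and 75.6 under CR. Here too the diets did not overlap by CPM in either population and CR was the higher in all 5 isolations, although by only 0.06 in isolation 5. By TPM the Lgr5 groups overlapped, at 6.62 to 10.9 under AL and 9.54 to 13.2 under CR. The fold change was 0.57 (SE 0.168, adjusted p = 0.294) in Lgr5 cells and 0.44 (SE 0.133, adjusted p = 0.209) averaged over both populations.

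The other 3 genes of sensing did not separate the diets by CPM. Ern1 was at 21.1, 37.2 and 31.5 CPM in Lgr5 AL, 31.6, 26.9 and 36.9 in Lgr5 CR, 35.5 and 24.8 in Hopx AL and 44 and 30 in Hopx CR, with overlap in both populations. Ern2 spread most, from 16.9 CPM in Lgr5 AL 3 to 69.3 CPM in Hopx AL 1, with 32.7 and 44.0 in the other Lgr5 AL libraries, 20.5, 40.7 and 38.7 in Lgr5 CR, 26.7 in Hopx AL 2 and 39.6 and 32.2 in Hopx CR. Its differences between the diets within an isolation ran from -0.81 to 1.19 log2 units. Xbp1 was at 420, 384 and 243 CPM in Lgr5 AL, 380, 455 and 480 in Lgr5 CR, 543 and 354 in Hopx AL and 402 and 478 in Hopx CR. The CR animal had more Xbp1 mRNA in 3 of 5 isolations and less in isolations 1 and 4.

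In the degradation pathway Sel1l, the scaffold that joins substrate receptors to the ubiquitin ligase Syvn1, stood out. Sel1l was at 178, 200 and 166 CPM in Lgr5 AL, 308, 199 and 333 in Lgr5 CR, 205 and 186 in Hopx AL and 315 and 217 in Hopx CR. In Lgr5 CR 2 it was level with its AL partner (-0.01), while the other 4 isolations differed by 0.22 to 1.01. The fold change averaged over both populations was 0.54 (SE 0.175, adjusted p = 0.235).

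Syvn1, the ligase itself, gave 86.8, 80.9 and 53.2 CPM in Lgr5 AL, 70.4, 66.6 and 107 in Lgr5 CR, 77.5 and 56.2 in Hopx AL and 89.7 and 75.4 in Hopx CR. The groups overlapped, and CR was lower in isolations 1 and 2 and higher in the other 3. Derl1, a channel component of the same complex, had small differences that shared a sign: CR was above AL by 0.06 to 0.61 in all 5 isolations, with 120 to 162 CPM in Lgr5 AL, 176 to 183 in Lgr5 CR, 136 to 193 in Hopx AL and 189 to 201 in Hopx CR (0.27, SE 0.14, adjusted p = 0.409).

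Edem1, the lectin that hands misfolded glycoproteins to degradation, was at 188, 178 and 117 CPM in Lgr5 AL, 181, 177 and 214 in Lgr5 CR, 213 and 121 in Hopx AL and 200 and 178 in Hopx CR. Herpud1, a membrane adaptor of the ligase complex, was at 242, 275 and 225 CPM in Lgr5 AL, 295, 254 and 347 in Lgr5 CR, 391 and 194 in Hopx AL and 424 and 274 in Hopx CR. Both overlapped between the diets, Edem1 being higher under CR in 2 of 5 isolations and Herpud1 in 4 of 5. Derl2 (44.1 to 104 CPM over all libraries) and Selenos, a selenoprotein that binds the p97 ATPase (42.8 to 128 CPM), were higher under CR in 3 and 4 of 5 isolations and overlapped in both populations.

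Derl3 went the other way. It was at 2.00, 3.08 and 1.99 CPM in Lgr5 AL, 0.908, 1.53 and 1.97 in Lgr5 CR, 4.27 and 2.61 in Hopx AL and 1.98 and 0.716 in Hopx CR. The diets did not overlap by CPM in either population, and CR was lower in all 5 isolations, by 0.02 in isolation 3 and by 0.99 to 1.80 in the others. By TPM the Lgr5 groups overlapped, at 1.92 to 3.08 under AL and 0.879 to 1.99 under CR. The fold change averaged over both populations was -1.01 (SE 0.404, adjusted p = 0.298), on a gene with few reads.

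Genes of oxidative folding did not share a direction, and 3 isomerases of the group lay below AL. Pdia6 was at 383, 462 and 318 CPM in Lgr5 AL, 238, 310 and 309 in Lgr5 CR, 522 and 380 in Hopx AL and 388 and 360 in Hopx CR. By CPM it was lower under CR in all 5 isolations, by 0.04 to 0.69, without overlap in Lgr5 cells and with overlap in Hopx cells. By TPM it was higher under CR in both Hopx isolations, at 168 and 164 under AL and 174 and 166 under CR. The fold change averaged over both populations was -0.36 (SE 0.159, adjusted p = 0.344).

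Pdia3 varied least of the 32 genes within groups. Its CPM was 738, 697 and 740 in Lgr5 AL, 624, 651 and 659 in Lgr5 CR, 964 and 871 in Hopx AL and 747 and 743 in Hopx CR. By CPM all 5 isolations were lower under CR, by 0.10 to 0.37, and the diets did not overlap in either population (-0.23, SE 0.116, adjusted p = 0.382). By TPM the Hopx groups overlapped, at 309 and 374 under AL and 333 and 342 under CR, and CR was higher in isolation 4. Pdia4, an isomerase of the same family, was at 211, 286 and 216 CPM in Lgr5 AL, 140, 210 and 210 in Lgr5 CR, 302 and 214 in Hopx AL and 215 and 264 in Hopx CR. CR was lower in 4 of 5 isolations, and only the Lgr5 groups were free of overlap.

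P4hb and Ero1l lay above AL. Ero1l was at 63.9, 59.5 and 57.4 CPM in Lgr5 AL and 104, 79.8 and 97.7 in Lgr5 CR, without overlap (0.64, SE 0.173, edgeR adjusted p = 0.261). In Hopx cells it was at 105 and 73.1 CPM under AL and 99.2 and 91.0 under CR, with overlap. P4hb was at 3210, 2060 and 1220 CPM in Lgr5 AL, 3460, 2980 and 2920 in Lgr5 CR, 2940 and 1790 in Hopx AL and 3780 and 2960 in Hopx CR. The CR animal was the higher in all 5 isolations, by 0.11 to 1.26, with overlap in Lgr5 cells through Lgr5 AL 1 (0.52, SE 0.267, adjusted p = 0.397). Ero1lb was at 21.7 to 47.7 CPM, and CR was the higher in 2 of 5 isolations.

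Enterocyte transcripts also lay higher under CR. All 10 enterocyte markers lay above AL in both populations (median log2 fold change 1.02 averaged over both), 0 past the adjusted threshold by counts and 4 by TPM, and none was at 0 in any library. Their sum was 22900, 6900 and 4530 CPM in Lgr5 AL, 22900, 16200 and 18000 in Lgr5 CR, 9590 and 6680 in Hopx AL and 14900 and 18200 in Hopx CR, so Lgr5 AL 1 was high in both the markers and P4hb. The libraries did not rank alike in both: P4hb was highest in Hopx CR 1 (3780 CPM), whose marker sum was below that of Hopx CR 2. In isolation 1 the sums were equal after rounding. Tuft cell markers moved as well: all 8 lay below AL in Lgr5 cells (median -1.80, 7 at an unadjusted p under 0.05 and 0 past the adjusted threshold), and 3 of 8 lay above AL in Hopx cells by counts. Their sum was 266 to 634 CPM in Lgr5 AL, 92.8 to 152 in Lgr5 CR, 197 to 519 in Hopx AL and 267 to 484 in Hopx CR, with Il25 at 0 in some libraries. The part of these cells in the differences of P4hb, Eif2ak3, Atf6, Sel1l and the other members was not tested.

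Chaperones showed no common direction under CR. Hspa5 (BiP) was at 835, 905 and 701 CPM in Lgr5 AL, 683, 835 and 927 in Lgr5 CR, 1260 and 898 in Hopx AL and 933 and 1070 in Hopx CR. By CPM the groups overlapped in both populations, and CR was the higher in isolations 3 and 5 only. Hsp90b1 (GRP94) was at 231, 377 and 363 CPM in Lgr5 AL, 346, 292 and 311 in Lgr5 CR, 399 and 527 in Hopx AL and 433 and 520 in Hopx CR, again with overlap. Opposite-strand exons of 1810014B01Rik cover 10.3% of its exon bases.

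The cofactors of BiP did not move as a set. Dnajb9, a J protein that brings BiP to IRE1 and so keeps it inactive, was at 26.4, 20.3 and 22 CPM in Lgr5 AL and 30.2, 29.9 and 42.7 in Lgr5 CR, without overlap (0.58, SE 0.237, adjusted p = 0.472). In Hopx cells it was at 54.3 and 32.9 CPM under AL and 43.4 and 33.8 under CR, with overlap. Dnajc3, the J protein first described as an inhibitor of eIF2alpha kinases, was at 116, 120 and 104 CPM in Lgr5 AL, 136, 126 and 144 in Lgr5 CR, 197 and 153 in Hopx AL and 173 and 176 in Hopx CR. Only its Lgr5 groups were free of overlap. Dnajb11, a J protein that brings unfolded chains to BiP, was at 79.3 to 152 CPM, and CR was the higher in 2 of 5 isolations.

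Sdf2l1, a partner of Dnajb11, was at 82.9, 96.5 and 46.3 CPM in Lgr5 AL, 42.4, 63.6 and 56.1 in Lgr5 CR, 125 and 86.6 in Hopx AL and 73.5 and 81.9 in Hopx CR. Creld2, a secreted ER stress protein with isomerase activity, was at 64.7, 71.7 and 36.1 CPM in Lgr5 AL, 32.2, 49.7 and 52.9 in Lgr5 CR, 93.2 and 60.9 in Hopx AL and 54.9 and 72.6 in Hopx CR. Manf, a secreted factor that binds BiP, was at 72.3, 80.5 and 32.9 CPM in Lgr5 AL, 50.6, 75.7 and 54.0 in Lgr5 CR, 147 and 87.2 in Hopx AL and 80.8 and 117 in Hopx CR. In all 3 the Lgr5 groups overlap, with Lgr5 AL 3 at or near the bottom.

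Hyou1, the large chaperone that exchanges nucleotide on BiP, was at 34.7, 53.4 and 30.9 CPM in Lgr5 AL, 29.3, 46.2 and 30.8 in Lgr5 CR, 35.6 and 28.1 in Hopx AL and 38.9 and 48.7 in Hopx CR. By CPM it is the only one of the 32 (3.12%, against 5.26% of all genes) with opposite directions in all Lgr5 and all Hopx isolations, although isolation 3 differed by 0.00 log2 units after rounding. By TPM, Hspa5, Calr, Dnajb11, Pdia6 and Ero1lb shared this pattern with Hyou1, lower under CR in Lgr5 and higher in Hopx isolations. The share of all genes with it by TPM was not counted. The 2 lectin chaperones, which bind glycoproteins with a single glucose left, overlapped between the diets in both populations by CPM. Calr was at 502, 605 and 418 CPM in Lgr5 AL, 343, 504 and 401 in Lgr5 CR, 669 and 494 in Hopx AL and 522 and 585 in Hopx CR. Canx, the membrane-bound calnexin, was at 336 to 566 CPM over all libraries.

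Of the 2 genes of import, Sec61b, a subunit of the Sec61 channel, was at 66.9, 57.0 and 37.0 CPM in Lgr5 AL, 51.3, 65.5 and 37.7 in Lgr5 CR, 121 and 101 in Hopx AL and 61.7 and 96.2 in Hopx CR. Hopx CR lay below Hopx AL without overlap, and the Lgr5 groups overlapped. Ssr1, a subunit of the complex that sits beside the channel, was at 189, 197 and 193 CPM in Lgr5 AL, 184, 213 and 204 in Lgr5 CR, 296 and 198 in Hopx AL and 229 and 257 in Hopx CR, with overlap in both.

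Counted over all 32 genes by CPM, CR lay above AL in all 5 isolations for P4hb, Atf6, Eif2ak3 and Derl1 (12.5%, against 8.71% of all genes). It lay below in all 5 for Pdia3, Pdia6 and Derl3 (9.38%, against 7.68%). By TPM, P4hb, Atf6, Eif2ak3, Derl1 and Derl3 kept their direction in all 5. Pdia3 was higher under CR in isolation 4 by TPM, and Pdia6 in both Hopx isolations. Within Lgr5 cells all 3 isolations were higher under CR for 8 members (25%, against 18.1%) and lower for 6 (18.8%, against 17.3%), and within Hopx cells both isolations were higher for 10 (31.2%, against 27.9%) and lower for 5 (15.6%, against 29.2%). Lgr5 CR lay above Lgr5 AL without overlap for 6 members (18.8%, against 7.41%) and below for 4 (12.5%, against 7.49%). Hopx CR lay above Hopx AL without overlap for 5 (15.6%, against 21.5%) and below for 4 (12.5%, against 21.1%). Of these counts without overlap, all by CPM, those in Lgr5 cells exceed the background on both sides and those in Hopx cells do not. By TPM, Eif2ak3 was the only one of the 6 higher Lgr5 members to stay free of overlap. Of the 4 lower ones Pdia3 and Pdia6 did, while Sdf2l1, Calr, Dnajb11 and Ero1lb were lower without overlap by TPM only. In Hopx cells all 5 higher members stayed free of overlap by TPM, and of the 4 lower ones only Derl3. Other members lay higher there without overlap by TPM only, among them Hspa5, Calr, Ern1, Xbp1, Edem1, Syvn1 and Derl1. On that scale the median of all genes in Hopx cells was 0.26. Shares of all genes without overlap by TPM were not counted.

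**Figure D4:**
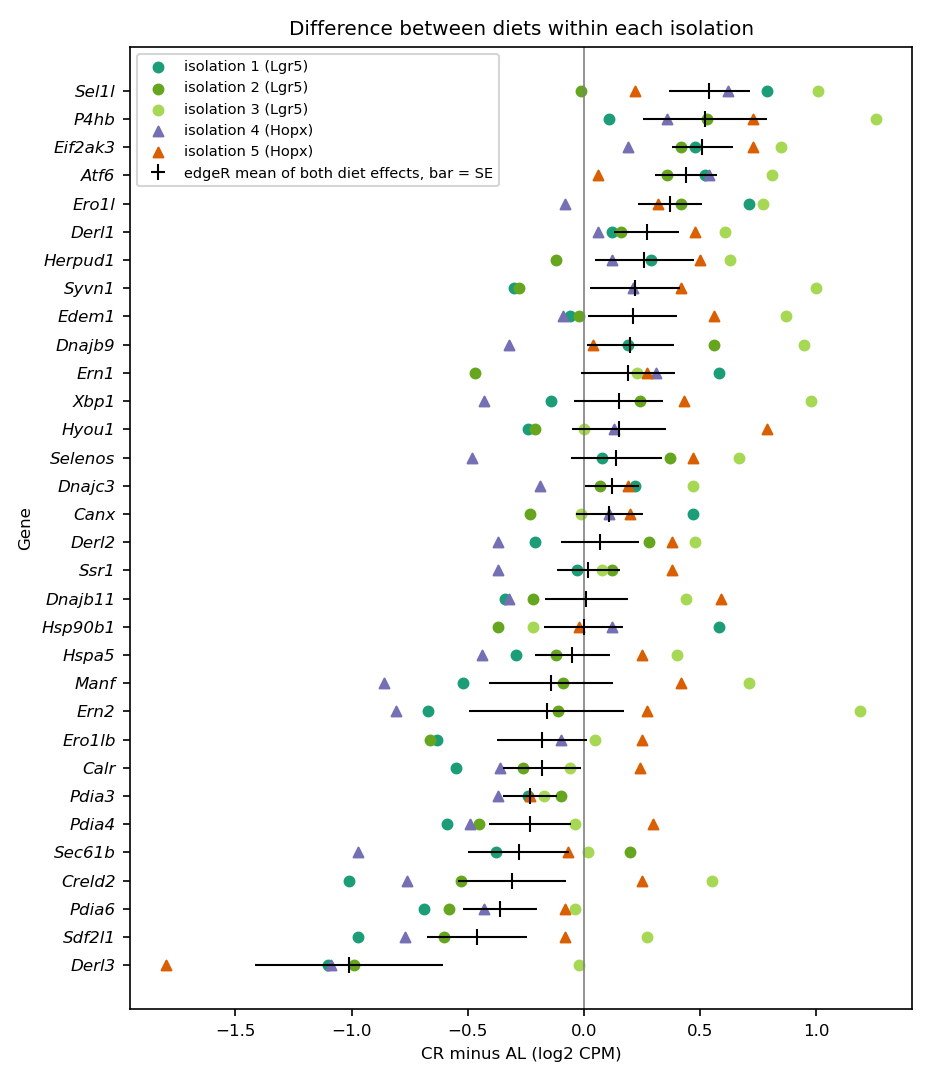
Difference in log2 CPM between the CR and the AL animal of each isolation, with circles for Lgr5 and triangles for Hopx isolations; the black mark is the edgeR log2 fold change averaged over both populations and its bar the SE. P4hb, Eif2ak3, Atf6 and Derl1 lie right of 0 and Pdia3, Pdia6 and Derl3 left of 0 in all 5 isolations, while most other genes straddle it.

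The difference of the diet effect between populations was tested as an interaction. It called 0 of 32 members (0.00631% of all genes), with 0 at an unadjusted p under 0.05 in either direction (2.83% of all genes higher and 1.89% lower), and DESeq2 called 0 (0.221%). The interaction was above 0 for 12 of 32 by counts (37.5%, against 46.5%) and for 29 of 32 by TPM, where its median was 0.41 for the members and 0.40 for all genes, so the direction turns with the scale. The smallest p belonged to Dnajb9, whose diet effect in Hopx cells was lower than in Lgr5 cells by 0.76 (SE 0.374, adjusted p = 1), and to Ero1l, lower by 0.55 (SE 0.273, adjusted p = 1). For Hyou1 the interaction was 0.62 (SE 0.404, adjusted p = 1). No difference in how the populations answered the diet was detectable with these 10 libraries. Without Hopx AL 1 the number of members with a higher diet effect in Hopx cells was 23 of 32 in place of 12, and without Hopx AL 2 it was 6.

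Other genes of the pathway were counted from lists of known function. Of 17 further degradation genes, 10 lay above 0 averaged over both populations (median 0.08) and 0 passed. The smallest p was that of Edem3, a mannosidase of glycoprotein degradation, at 0.63 (SE 0.156, adjusted p = 0.14). Of 14 genes listed under the PERK branch and the integrated stress response, not all of them specific to it, 5 lay above and 9 below 0 (median -0.17) and 0 passed. Those with the smallest p were Ppp1r15b, a regulatory subunit of the phosphatase that restores translation (0.51, SE 0.139, adjusted p = 0.174), Trib3, a target of ATF4 (1.18, SE 0.422, adjusted p = 0.261), and Dnajb2, a cytosolic J protein (-0.52, SE 0.182, adjusted p = 0.252). Of 13 further stress sensors, proteases and transcription factors 9 lay above 0 (median 0.12) and 0 passed, with Creb3l2, an ATF6 relative, at 0.77 (SE 0.196, adjusted p = 0.153). Of 15 further foldases 6 lay above 0 (median -0.04), of 14 genes of N-glycosylation 11 (median 0.10) and of 22 genes of the translocon and of import 12 (median 0.01), with 0 past the threshold in each.

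The second comparison was between the populations. By TMM-normalized counts, Hopx cells lay above Lgr5 cells for nearly all members, led by the import channel subunit Sec61b, the BiP-binding factor Manf, GRP94 (Hsp90b1) and the BiP cofactors Dnajb9 and Dnajc3, at about 0.50 to 0.83 log2 units averaged over the diets. By TPM the same comparison was negative for nearly all members. Relative to all genes, the members lay on the high side in Hopx cells by both measures. No member passed the adjusted threshold by the count test, and much of the difference under AL rests on Hopx AL 1.

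Averaged over the diets, 29 of 32 members had a log2 fold change above 0 by counts (90.6%, against 50.5% of all genes; median 0.29, against 0.01), whereas 3 of 32 did on the log2(TPM + 1) scale (median -0.24, against -0.46 for all genes). Set against the median of all genes, 29 of 32 members lay above it by counts and 27 of 32 by TPM, by a median of 0.28 and 0.22. The 2 medians are over different sets, the 15839 genes tested by counts and the 11886 genes with a mean of at least 1 TPM. The 12 Paneth cell markers took 17.5% to 31.8% of TPM in Hopx libraries and 7.11% to 18.5% in Lgr5 libraries, and their part in the gap between the scales was not tested. The members' medians by role, by counts, were 0.50 for chaperones, 0.58 for import, 0.28 for oxidative folding, 0.25 for lectins, 0.18 for sensing and 0.18 for degradation.

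The count test called 0 of 32 members averaged over the diets (1.33% of all genes), 0 under AL (0.0189%) and 0 under CR (0.0189%). At an unadjusted p under 0.05 there were 11 above and 0 below averaged over the diets (34.4%, against 10.4% of all genes, and 0%, against 9.03%). Under AL there were 8 above (25%, against 9.27%) and 0 below (8.42%), and under CR 1 above, Hsp90b1 (3.12%, against 3.31%), and 0 below (2.99%). Fold changes above 0 numbered 29 of 32 under AL (90.6%, against 52.4%) and 28 of 32 under CR (87.5%, against 50.2%). DESeq2 called Hsp90b1, Dnajc3, Pdia3 and Sec61b averaged over the diets (4 of 32, 12.5%, against 9.41% of all genes) and Dnajb9, Dnajc3 and Sec61b under AL (3 of 32, 9.38%, against 8.11%), shares near the background. On the TPM scale limma called Eif2ak3, Edem1, Syvn1 and Derl1 lower in Hopx cells averaged over the diets (12.5%, against 31.7% of all genes lower). Under AL it called these 4 with Hyou1 and Dnajb11 (6 of 32, 18.8%, against 31.7%).

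Leaving out Hopx AL 1 left 20 of 32 members above 0 averaged over the diets (median 0.14) and 17 of 32 under AL (median 0.01). By role, 8 of 9 chaperones were then still above 0 (median 0.33), while sensing fell to 1 of 5 (-0.04) and degradation to 2 of 8 (-0.02).

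Dnajc3 had the smallest p. From the values above, all 4 Hopx libraries (153 to 197 CPM) lay above all 6 Lgr5 libraries (104 to 144 CPM), with a log2 fold change of 0.50 (SE 0.115, edgeR adjusted p = 0.069). DESeq2 gave 0.47 (adjusted p = 0.00444), and over all alternatives the adjusted p ran from 0.00444 to 0.80. On the log2(TPM + 1) scale the difference was -0.05 (SE 0.158, adjusted p = 0.80), so the direction depends on the scale.

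Hsp90b1, Manf and Pdia3 were also free of overlap between the 4 Hopx and the 6 Lgr5 libraries by CPM, which makes 4 of 32 members (12.5%, against 2.87% of all genes) in this direction and 0 in the other (1.94%). Hsp90b1 differed by 0.55 (SE 0.169, adjusted p = 0.119) by counts and by 0.01 by TPM. Manf differed by 0.82 (SE 0.264, adjusted p = 0.136) by counts and by 0.29 by TPM. Pdia3 differed by 0.27 (SE 0.115, adjusted p = 0.228) by counts and by -0.27 by TPM.

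Sec61b differed by 0.83 (SE 0.214, adjusted p = 0.0887) by counts and by 0.30 (SE 0.182, adjusted p = 0.195) by TPM, so its direction held on both scales (adjusted p from 0.0178 to 0.338 over all alternatives). Hopx CR 1, at 61.7 CPM, lay within the Lgr5 range of 37.0 to 66.9 CPM, and the other 3 Hopx libraries lay above it. Selenos (0.53 by counts and -0.02 by TPM), Derl2 (0.46 and -0.08), Sdf2l1 (0.51 and -0.01), Dnajb9 (0.55 and -0.01), Atf6 (0.37 and -0.15) and Ssr1 (0.32 and -0.23) were at an unadjusted p under 0.05 by counts and changed sign by TPM. Hspa5 differed by 0.35 (SE 0.16, adjusted p = 0.26) by counts and by -0.20 by TPM, with the 4 Hopx libraries at 898 to 1260 CPM and the 6 Lgr5 libraries at 683 to 927 CPM.

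Eif2ak3 was the exception among the sensors. It lay lower in Hopx cells on both scales, by -0.19 (SE 0.131, adjusted p = 0.461) by counts and by -0.66 (SE 0.186, limma adjusted p = 0.0228) by TPM, with adjusted p from 0.0189 to 0.815 over all alternatives. Under CR its 2 Hopx libraries, at 39.4 and 41.8 CPM, lay below all 3 Lgr5 libraries, at 45.6 to 51.3 CPM. By CPM it was the only member to do so (3.12%, against 11.5% of all genes). By TPM, Edem1, Derl1 and Pdia3 did so as well. In the other direction, 17 members had both Hopx CR libraries above all 3 Lgr5 CR libraries by CPM (53.1%, against 11.7%), Hspa5, Calr, Pdia4 and Pdia6 among them. By TPM none of the 17 kept this separation beyond rounding. Hsp90b1 came closest, with Hopx CR 1 and Lgr5 CR 1 both at 144 TPM. Under AL, where Hopx AL 1 is the high library, 9 members had both Hopx libraries above all 3 Lgr5 libraries by CPM (28.1%, against 18.8%) and 0 below (15.9%).

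**Figure D5:**
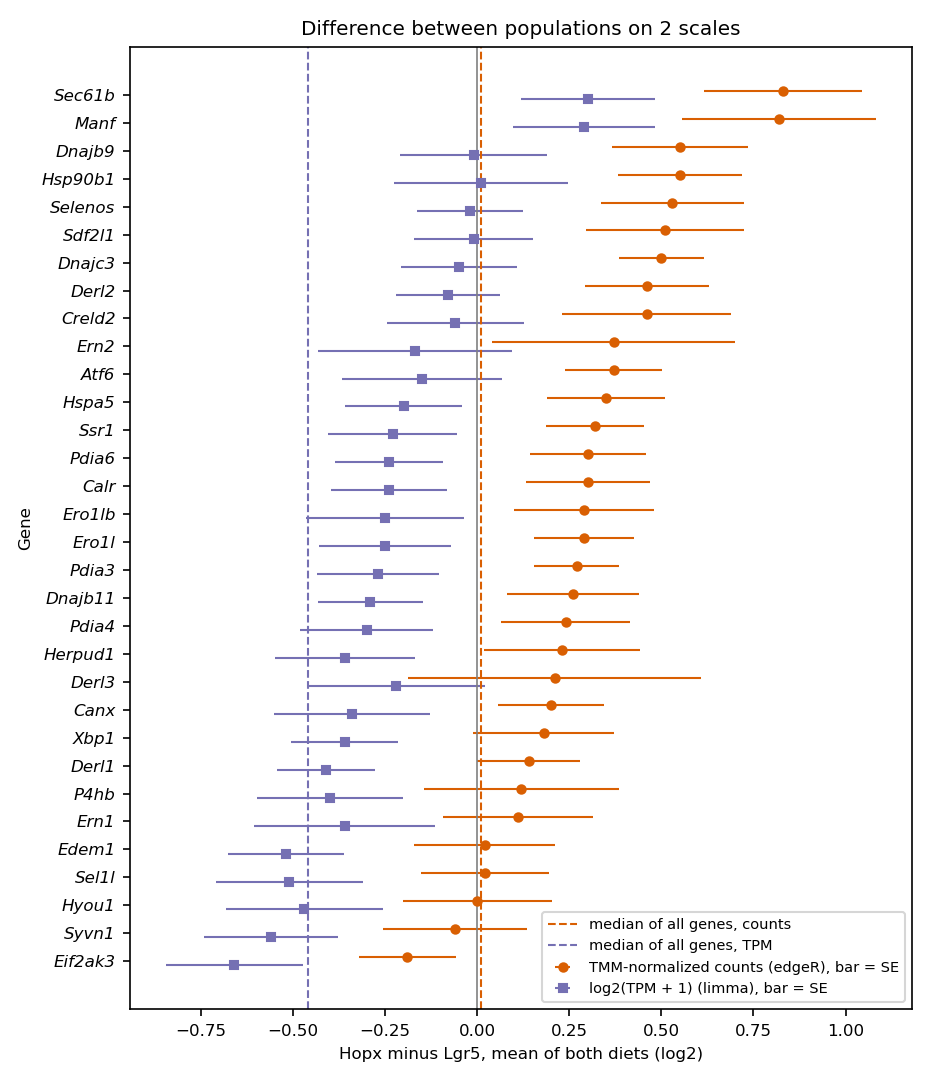
Log2 difference of Hopx minus Lgr5 cells averaged over both diets, by TMM-normalized counts (circles) and by log2(TPM + 1) (squares), with SE bars; dashed lines mark the median of all genes on each scale, 0.01 and -0.46. Of the 32 genes 29 lie right of 0 by counts and 3 by TPM, so the sign depends on the scale, while 29 and 27 lie right of the dashed line of their scale.

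By counts, secretory markers lay on the same side as the chaperones, while by TPM 7 of 9 chaperones were below 0. All 12 Paneth cell markers were above 0 in Hopx cells by counts and by TPM (1 past the threshold on each), as were all 12 enteroendocrine markers (6 and 7 past it), with none of the enteroendocrine markers at 0 in any library. Of 9 goblet cell markers in the table, 8 were above 0 by counts and 6 by TPM (3 past the threshold on each). Their summed level was 2930 to 6110 CPM in Lgr5 AL, 3450 to 5520 in Lgr5 CR, 4700 to 9240 in Hopx AL and 7670 to 9500 in Hopx CR, and that of the enteroendocrine markers 1520 to 2950, 836 to 4560, 8610 to 8840 and 3340 to 8460 CPM. Under CR all 8 tuft cell markers lay higher in Hopx than in Lgr5 cells (median 1.73, 8 at an unadjusted p under 0.05 and 0 past the adjusted threshold). Crypt stem cell markers lay lower in Hopx cells for 8 of 9 genes by counts, 2 past the threshold. The part of these cells in the members' differences was not tested.

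Of the other pathway genes, those of the translocon and of import were the only list with members past the threshold between populations. By counts 20 of 22 lay above 0 (median 0.48) and 5 rose in Hopx cells: Ssr4 (1.04, SE 0.16, edgeR adjusted p = 0.023), Spcs1 (0.81, adjusted p = 0.0391), Sec11a (0.60, adjusted p = 0.0391), Sec11c (0.70, adjusted p = 0.0482) and Sec61g (1.29, adjusted p = 0.0485). Ssr4 belongs to the same complex as Ssr1, Spcs1, Sec11a and Sec11c to the signal peptidase, and Sec61g to the channel. By TPM 9 of 22 lay above 0 and 21 of 22 above the median of all genes; the 5 genes differed by 0.05 to 0.71, and of them Ssr4 (limma adjusted p = 0.0197) and Sec61g (limma adjusted p = 0.0431) passed. Without Hopx AL 1 none of the 5 passed (0.57 to 1.33, adjusted p from 0.127 to 0.193), and without Lgr5 AL 3 only Ssr4 did.

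Of 15 further foldases, 13 lay above 0 in Hopx cells (median 0.42) and 0 passed, with Agr2, an isomerase of mucin-secreting cells, at 1.23 (SE 0.367, adjusted p = 0.114) and the prolyl isomerase Fkbp2 at 0.67 (SE 0.172, adjusted p = 0.0882). Genes of N-glycosylation lay above 0 for 12 of 14 (median 0.16) and further degradation genes for 11 of 17 (median 0.11), with 0 past the threshold. The list of the PERK branch was divided, with 6 above and 8 below 0 (median -0.02). Of the further sensors, proteases and transcription factors 5 of 13 lay above 0 (median -0.11), with Creb3l1, an ATF6 relative of secretory cells, at 1.06 (SE 0.249, adjusted p = 0.0715). These directions are by counts: by TPM 3 of 15 foldases, 2 of 14 glycosylation genes and 0 of 17 degradation genes lay above 0, and 13, 11 and 9 of them above the median of all genes.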

How the data were processed

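RNA-seq of 10 libraries from 10 animals was analysed from gene tables. The estimated counts and the TPM values were deposited by the authors and made with kallisto, per the submitters' processing notes, which also name edgeR and the human build GRCh38, although the gene symbols are those of mouse. After rounding of the estimated counts, genes with few reads were removed (filterByExpr, minimum count 10) and libraries were scaled by TMM. Group means were fitted over all 10 libraries with edgeR 4.0.16 (quasi-likelihood test, R 4.3.3), p was adjusted over 15839 genes, and the SE is the log2 fold change divided by the square root of F. The labels place 1 AL and 1 CR animal in each isolation, and their deviations from the group means correlated at 0.08, 0.16, 0.02, 0.03 and 0.03. The alternatives were isolation as a replicate block (edgeR, or limma-voom with limma 3.58.1), DESeq2 1.42.0, RLE scaling, no filter, limma on log2(TPM + 1), pseudocount 0.1, no TPM filter, and each library left out. Leaving out Lgr5 AL 3 and Hopx AL 1 was added after seeing the data. Values in every library are given for 19 set members and for any among the 4 smallest p of a contrast, and other pathway genes are named if past the threshold or among the 3 smallest p of their list. The members and lists were chosen with earlier results of these data known. The tests were checked on simulated data. The precision was limited by depths of 20.3 M to 87.2 M counts without molecular identifiers and by 2 or 3 animals per group.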

Additional observations from a re-analysis of the deposited data

How the results depend on the processing

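The diet fold changes printed with an SE for single members, other than those of the interaction, kept their sign under every alternative run. Diet fold changes of the other members can change sign on the TPM scale within a population. Of 868 recomputed fold changes of single members 811 kept direction and side of the threshold, 12 newly passed it and 45 reversed. All 45 reversals were on the TPM scale. Averaged over diets (log2(TPM + 1), with the value at pseudocount 0.1 second where it differs), they were Dnajc3 -0.05, Atf6 -0.15 and -0.17, Derl2 -0.08, Selenos -0.02 and -0.03, Dnajb9 -0.01, Sdf2l1 -0.01, Pdia3 -0.27, Ssr1 -0.23 and -0.24, and Hspa5 -0.20. Under AL they were Dnajc3 -0.17, Ero1l -0.24 and -0.25, Atf6 -0.25 and -0.28, Derl2 -0.23 and -0.24, and Selenos -0.08, and for the interaction Dnajc3 0.23 and 0.24. The cause was not tested.

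Members above 0 on the TPM scale numbered 12 for Lgr5 diet, 28 for Hopx diet, 29 for the interaction, 3 for Hopx AL against Lgr5 AL, 15 for Hopx CR against Lgr5 CR and 3 averaged over diets. Their medians on that scale were 0.29 for Hopx diet, 0.41 (0.42 at pseudocount 0.1) for the interaction, -0.45 (-0.46) under AL, -0.04 under CR and -0.24 (-0.27) averaged over diets. At log2(TPM + 1) the medians of all genes were 0.26, 0.4, -0.65, -0.26 and -0.46 in the same order. Members above those medians numbered 20, 18, 25, 27 and 27. Members called numbered 1 (diet averaged over populations), 3 (populations under AL) and 4 (averaged over diets) by DESeq2, and 6 and 4 in the last 2 comparisons by TPM. Without the TPM filter they numbered 5 and 3 in these 2 comparisons, where 2390 and 2106 genes of the whole table were called. Averaged over diets, edgeR without a filter called 1 member and 465 genes of the whole table. Without Lgr5 AL 3 and Hopx AL 1 together, members above 0 numbered 26 for Hopx diet (median 0.29), 22 for the interaction (0.33), 14 for populations under AL (-0.10) and 19 averaged over diets.

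Genes called over the whole table are given for Lgr5 diet, Hopx diet, the interaction, diet averaged over populations, populations under AL, under CR and averaged over diets, in that order. They were 3, 2, 1, 1, 3, 3 and 211 in the main test. DESeq2 called 365, 140, 35, 641, 1157, 160 and 1400, and edgeR without a filter 83, 7, 3, 117, 194, 24 and 465. By log2(TPM + 1) they were 33, 4, 4, 88, 3847, 13 and 3871. At pseudocount 0.1 they were 30 for Lgr5 diet, 2 for the interaction, 77 for diet averaged over populations, and 3977, 13 and 3995 for the populations, and without the TPM filter 1, 8, 4, 15, 2390, 9 and 2106. RLE scaling gave 1 for Lgr5 diet. With isolation as a replicate block, edgeR called 0, 0, 0 and 2 genes in the diet comparisons and limma-voom 1, 0, 0 and 211, then 9 under AL and 79 averaged over diets. The block changed no call of a member, and between populations it could be fitted only as a random effect. Without both libraries the counts were 3 for the interaction, 24 for diet averaged over populations, and 5, 11 and 16 for the populations.

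Leaving out 1 library at a time called 0 members in each of the 7 comparisons. Members above 0 ran from 16 to 23 for Lgr5 diet, 10 to 26 for Hopx diet, 6 to 23 for the interaction, 16 to 23 for diet averaged over populations, 17 to 31 under AL, 21 to 31 under CR and 20 to 31 averaged over diets. Their medians ran from 0.02 to 0.19, -0.27 to 0.29, -0.30 to 0.27, -0.01 to 0.21, 0.01 to 0.47, 0.19 to 0.33 and 0.14 to 0.41. Genes called ran from 0 to 110, 1 to 3, 1 to 2, 1 to 350, 0 to 110, 1 to 7 and 22 to 294. The Hopx ends under AL and diet came from leaving out Hopx AL 1 or Hopx AL 2, which leaves 1 Hopx AL library that is assumed to vary like the other groups. Depth limits Derl3 most, at 31 to 265 counts.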
